A study of Bos indicus x Bos taurus with 45 samples.

Results

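miR-2284 and miR-2285 are 2 families of microRNAs (miRNAs) that were first described in cattle and have many copies in the genomes of ruminants. All entries whose name starts with either family name were taken from the 4 deposited count tables of a small RNA sequencing study of bovine fetuses. They numbered 43 of the 603 miRNA names in these tables, 9 of the miR-2284 and 34 of the miR-2285 family. Entries were taken by name alone, but the families were chosen with earlier results of these data known.

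A miRNA is cut from a hairpin precursor in steps by the enzymes Drosha and Dicer, and 1 arm of the hairpin is loaded into an Argonaute protein. The loaded arm pairs with messenger RNAs mainly through the bases near its 5′ end, called the seed, and lowers their translation or stability. A name ending in 3p or 5p gives the arm, and the letters after the number tell members of a family apart. Members of such expanded families can be so alike that short reads match several of them, and their targets in fetal tissues are mostly unknown. Mature sequences and positions of the members were not used here, so the members are described by name.

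The study sequenced small RNA of Bos indicus x Bos taurus fetuses of about day 105 of gestation to ask which miRNAs differ in large offspring syndrome (LOS), a fetal overgrowth condition of ruminants. Control fetuses came from artificial insemination. LOS fetuses came from assisted reproductive technology (ART) and had the syndrome. ART fetuses, sequenced in liver alone, came from the same kind of conception with a normal phenotype. Kidney had 4 control and 4 LOS libraries, liver 5 control, 4 LOS and 4 ART, skeletal muscle 4 control and 4 LOS, and tongue 9 control and 7 LOS. Sex is given for tongue alone (9 female, 7 male). The labels use the same control and LOS numbers in each tissue, and a number was taken as 1 fetus. In tongue, control 1 to 5 and LOS 1 to 4 are female. By that rule the control and LOS libraries of kidney, liver and muscle are female too, and the tissue comparisons hold females alone. The sex of the ART fetuses is not given. The labels do not say which kind of assisted reproduction was used, or name dams and sires. If fetuses share a parent or a collection, p-values cover less than the full spread between animals.

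The 45 libraries held from 3379816 (a liver library) to 13822348 listed reads (a tongue library). Liver libraries reached at most 4976770, those of muscle lay between 4744968 and 6456252, kidney had 6132982 to 9170756 and no tongue library was under 9357833. The marker miRNAs of hepatocytes (miR-122 and miR-885) summed to 14465 to 19696 counts per 1000000 listed reads (CPM) in liver and were not listed in tongue. Those of skeletal muscle (miR-1, miR-133a, miR-133b, miR-206) summed to 16938 to 20689 CPM in muscle and 16001 to 23933 CPM in tongue. Those of kidney and gut epithelium (miR-192, miR-194, miR-215) summed to 20454 to 25108 CPM in kidney, below the 61965 to 81786 CPM of liver. In whole tissue, fewer cells of a type and less of a miRNA per cell cannot be told apart.

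The number of listed members differed between tissues. Liver listed 41 members of 563 miRNAs (7.28%), kidney 21 of 436 (4.82%), skeletal muscle 18 of 439 (4.10%) and tongue 9 of 460 (1.96%). The order did not follow depth: liver had the fewest reads per library and the most members, and tongue the most reads and the fewest members. Each miRNA of a table reached 5.22 CPM or more in its second-highest library, so the tables hold the more abundant miRNAs, and a member that a table does not list has no value here and was not taken as 0. The lowest member count in a library was 5 in liver, 10 in muscle, 13 in tongue and 16 in kidney.

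9 members were listed in all 4 tables: miR-2284w-3p, miR-2284x, miR-2285bf, miR-2285bn, miR-2285ce, miR-2285cm, miR-2285f, miR-2285k and miR-2285q. A further 8 stood in 3 tables, 3 in 2 tables and 23 in 1 table. Of these 23, 22 were listed in liver and 1, miR-2285m, in kidney. The 3 most abundant members of the liver table that no other table lists were miR-2285da at 85.7 ± 5.63 CPM (SD, n = 13), miR-2285dd at 83.0 ± 5.50 CPM and miR-2285aw at 34.6 ± 4.14 CPM. miR-2285da and miR-2285dd differed by at most 4.70% in the counts of any liver library, with a ratio of 1.01 to 1.05. Reads that fit both entries can give such a ratio, so their separate levels are uncertain. In liver the same holds for miR-2285ce with miR-2285f (within 8.63%), miR-2285bn with miR-2285f (12.8%) and miR-2285aw with miR-2285cm (13.4%). In kidney it holds for miR-2284w with miR-2285bf (14.1%).

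Most members were of low abundance. The median of the members' mean levels was 20.2 CPM for the liver table, 12.5 for kidney, 10.2 for tongue and 10.1 for muscle, against 71.1, 71.5, 101 and 81.8 CPM over all miRNAs listed there. Their median coefficient of variation over libraries was 16.6%, 14.8%, 29.0% and 18.3% in the same order, against 14.3%, 14.1%, 14.4% and 15.3% over all miRNAs. In tongue the members thus varied more between libraries than the median miRNA did. CPM compares miRNAs with each other here because mature miRNAs are of nearly equal length.

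**Figure D1:**
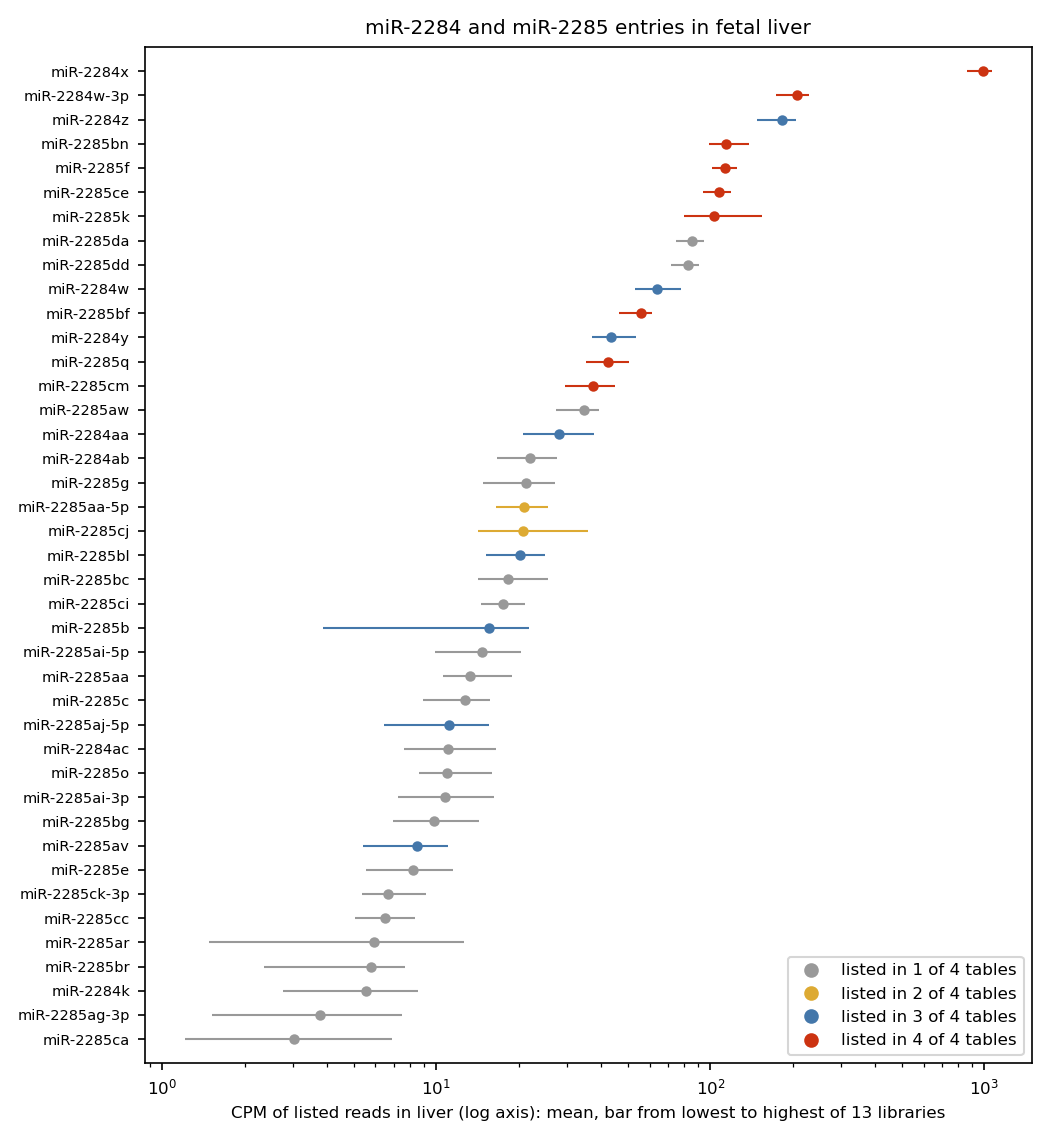
Mean CPM of the 41 members listed in liver on a log axis, with a bar from the lowest to the highest of 13 libraries and colours for the number of tables that list a member. miR-2284x stands alone at 988 CPM, 7 members exceed 100 CPM, and the bars of miR-2285b and miR-2285ar are long.

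miR-2284x was the most abundant member outside tongue. In kidney its level was 1017, 906, 897 and 983 CPM in control 1 to 4 and 1007, 887, 1038 and 1003 CPM in LOS 1 to 4. In muscle it was 916, 934, 981 and 994 CPM in control 1 to 4 and 906, 984, 781 and 717 CPM in LOS 1 to 4, where LOS 3 and LOS 4 lay below all other libraries. In liver its 13 libraries lay between 864 and 1063 CPM, with a median of 1005. These 3 tissues had means of 967 ± 60.6 (n = 8), 901 ± 101 (n = 8) and 988 ± 59.9 CPM (n = 13), with ranges that overlap. Among all listed miRNAs it ranked 75 in kidney, 86 in muscle and 91 in liver. In tongue the same entry had 4.13 CPM in its lowest library, a median of 13.1 and 20.3 CPM in its highest, with a mean of 12.4 ± 5.03 CPM (n = 16) and rank 371 of 460. The tongue libraries did not overlap those of any other tissue.

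Of the reads of all members, miR-2284x held a median of 78.5% in muscle, 68.9% in kidney, 38.9% in liver and 9.52% in tongue. All listed members together summed to 2593 ± 94.0 CPM in liver, 1396 ± 79.0 in kidney, 1157 ± 123 in muscle and 129 ± 28.8 in tongue. These sums cover unlike sets of 41, 21, 18 and 9 members in that order. Without miR-2284x, kidney held 429 ± 26.7 CPM, muscle 255 ± 25.5 and liver 1605 ± 68.2 CPM. A few very abundant miRNAs take much of each library: with the 3 most abundant left out of the total, the members summed to 3405 CPM in liver, 2703 in kidney, 1657 in muscle and 183 in tongue, which keeps the order of tissues. The 9 members listed in all 4 tissues, with the full total, summed to 1767 ± 65.0 CPM in liver and 1209 ± 68.8 in kidney. They summed to 1045 ± 110 CPM in muscle and 129 ± 28.8 in tongue.

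The next members differed by tissue. In liver, miR-2284w-3p stood at 207 ± 17.7 CPM, miR-2284z at 182 ± 17.3, miR-2285bn at 114 ± 11.8 and miR-2285f at 113 ± 7.54 CPM (n = 13). In kidney, miR-2284w-3p (71.8 ± 6.22), miR-2285f (52.4 ± 5.46), miR-2285k (39.8 ± 6.38) and miR-2284y (38.1 ± 5.53 CPM) followed miR-2284x (n = 8). In muscle, miR-2284w-3p (37.5 ± 5.02), miR-2285f (34.8 ± 6.11), miR-2284y (32.4 ± 4.64) and miR-2285bf (31.5 ± 4.91 CPM) did so (n = 8). In tongue the highest member was miR-2285bf at 41.1 ± 7.48 CPM (n = 16), followed by miR-2285f (25.8 ± 5.73), miR-2284w-3p (12.9 ± 3.46), miR-2284x and miR-2285k (10.2 ± 3.11 CPM). Within a tissue, several of these neighbours lie within each other's SD. The lowest members were miR-2285ca (3.03 ± 1.80) and miR-2285ag-3p (3.75 ± 1.69 CPM) in liver, miR-2285b (5.35 ± 1.95) and miR-2285m (5.54 ± 1.72 CPM) in kidney, miR-2285b (3.63 ± 1.41) and miR-2284aa (4.69 ± 1.47 CPM) in muscle, and miR-2285cm (3.79 ± 1.22) and miR-2285bn (5.94 ± 1.73 CPM) in tongue.

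For 3 members, 2 entries were listed that by name come from the same hairpin. miR-2284w-3p had more reads than miR-2284w, the entry named without an arm, in every library of the 3 tables that list both. The median ratio was 2.50 in kidney (2.21 to 2.75), 3.27 in liver (2.87 to 4.26) and 2.29 in muscle (1.72 to 2.56), so every liver library lay above every kidney library. In liver miR-2285aa-5p had 1.67 times the reads of miR-2285aa (1.19 to 1.98 over 13 libraries). miR-2285ai-5p had 1.34 times those of miR-2285ai-3p and was the higher arm in 12 of 13 libraries.

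**Figure D2:**
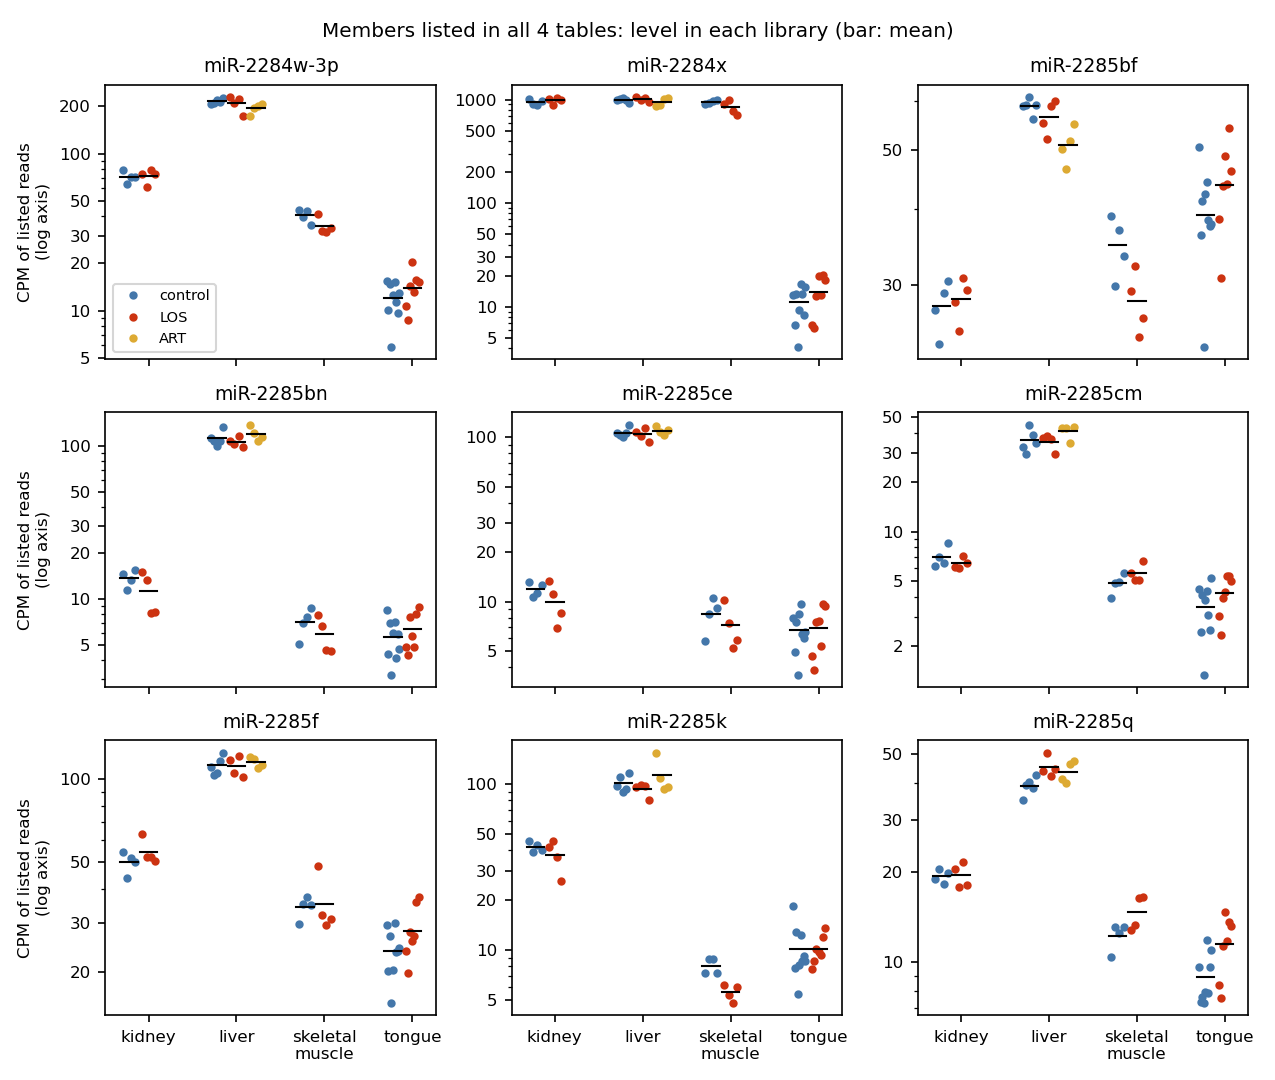
CPM of the 9 members listed in all 4 tissues, 1 panel each, with a point per library, a bar at the group mean and a log axis. Liver has the highest mean for each of the 9, the ranges of miR-2284x overlap in 3 tissues and its tongue points lie at 4.13 to 20.3 CPM, and miR-2285bf is the highest member in tongue.

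Tissues were compared with edgeR's quasi-likelihood test on control 1 to 4, with the fetus as a block, over the miRNAs that both tables list. A call is a Benjamini-Hochberg adjusted p under 0.05 over all of these miRNAs. Differences are log2 values ± standard error (SE) after TMM scaling, which sets the bulk of miRNAs level between libraries, and the CPM of these comparisons are scaled in the same way. Tissues differ in much of their miRNA profile, so most miRNAs pass this test and a call says little without its background.

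Between liver and kidney, 10 of 19 members were higher in liver and 3 were lower. Over all 417 miRNAs tested, 45.3% were higher and 42.2% lower. The largest differences were miR-2285ce, at 74.3 ± 1.76 against 16.9 CPM (log2 2.14 ± 0.10, adjusted p = 8.76e-08, edgeR), and miR-2285bn, at 77.0 ± 2.34 against 19.3 CPM (2.00 ± 0.11). miR-2285cm (1.40 ± 0.16), miR-2284z (1.34 ± 0.10), miR-2285aa-5p (0.76 ± 0.14), miR-2285cj (0.63 ± 0.19), miR-2284w-3p (0.60 ± 0.08), miR-2284aa (0.52 ± 0.17) and miR-2284w (0.29 ± 0.11) were also higher, as was miR-2285k (0.24 ± 0.09, adjusted p = 0.042, edgeR). DESeq2 called 6 members higher, without miR-2285cj, miR-2284aa, miR-2284w and miR-2285k, and the call of miR-2284w was also lost with RLE scaling, without fetus 1, 2 or 3 and in the LOS fetuses. Lower in liver were miR-2285av (−0.92 ± 0.13), miR-2284x (−0.88 ± 0.07) and miR-2284y (−0.79 ± 0.11). miR-2285q was not called, with 27.3 and 27.4 CPM.

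The direction of the 3 lower members depended on the scaling. With the listed total as library size and no TMM factor, miR-2284x stood at 0.10 ± 0.08, miR-2284y at 0.19 ± 0.13 and miR-2285av at 0.05 ± 0.15, none called. Then 16 members were higher and 0 lower, where 272 of all 417 miRNAs were higher and 98 lower. That scaling moved the median of all 417 miRNAs from 0.11 to 1.09, and the share of higher among all calls from 51.8% to 73.5%. Measured from the median of all miRNAs in the TMM fit, miR-2284x lay at −0.998, miR-2284z at 1.23 and miR-2285bn at 1.89. Of the 19 members, 12 lay above that median and 6 below.

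Between liver and skeletal muscle, 12 of 17 members were higher in liver and 2 lower, against 44.8% higher and 40.2% lower of 415 miRNAs. miR-2285bn stood at 82.3 ± 3.98 against 9.42 CPM (log2 3.13 ± 0.16), miR-2285ce at 79.3 ± 2.62 against 11.2 (2.83 ± 0.15) and miR-2285k at 74.8 ± 9.33 against 10.7 CPM (2.80 ± 0.12, adjusted p = 1.62e-07, edgeR). miR-2285cm (2.11 ± 0.15), miR-2284z (2.02 ± 0.10), miR-2284aa (1.77 ± 0.20), miR-2284w-3p (1.60 ± 0.10), miR-2285b (1.26 ± 0.25), miR-2285bl (1.06 ± 0.15), miR-2284w (1.06 ± 0.14), miR-2285f (0.87 ± 0.10) and miR-2285q (0.84 ± 0.11) were higher too. miR-2284x (−0.71 ± 0.08) and miR-2284y (−0.38 ± 0.13) were lower. With the listed total they stood at 0.09 ± 0.06, not called, and 0.42 ± 0.13, called higher, as that scaling moved the median of all miRNAs from 0.06 to 0.86 and the share of higher calls from 52.7% to 69.5%.

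Between kidney and skeletal muscle, 12 of 18 members were higher in kidney and 1 lower, against 31.7% higher and 44% lower of 398 miRNAs. miR-2285k stood apart at 41.6 ± 2.08 against 8.25 CPM (log2 2.34 ± 0.11, adjusted p = 3.78e-06, edgeR). The other 11 higher members had differences from 0.45 (miR-2284z) to 1.02 (miR-2284aa). Without fetus 4, 9 members were higher, as miR-2285cm (0.50 ± 0.14), miR-2284w (0.54 ± 0.15) and miR-2285ce (0.48) lost their call. The call of miR-2285cm was also lost with DESeq2 and in the LOS fetuses (0.22), and that of miR-2285ce with the listed total (adjusted p = 0.0504, edgeR). miR-2284x was not called, at 940 ± 32.2 against 973 CPM (−0.05 ± 0.06). miR-2285bf was the lower member (−0.37 ± 0.12, adjusted p = 0.028), a call lost with RLE scaling (−0.22), with DESeq2 (−0.22), without fetus 1 (−0.13), without fetus 2 (−0.39, adjusted p = 0.054) and without fetus 3 (−0.37, adjusted p = 0.091). In the LOS fetuses 1 to 4 it stood at 0.05.

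**Figure D3:**
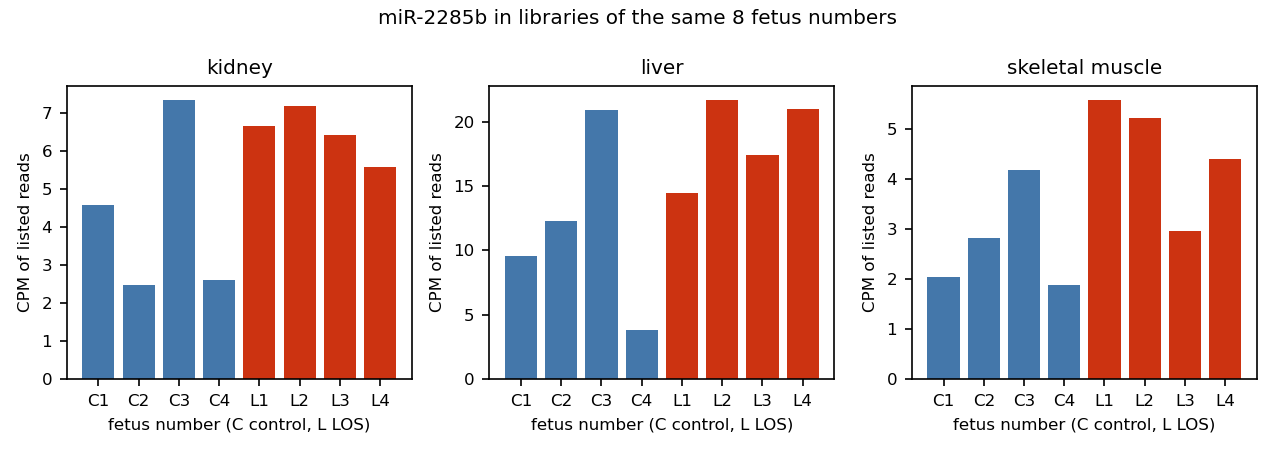
CPM of miR-2285b in libraries with the same fetus numbers of kidney, liver and skeletal muscle, as bars from 0. Control 3 is the highest control in each tissue, while the order of the other controls differs between tissues.

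Most of the 9 members that tongue lists were lower there than in the other tissues. Against kidney 8 of 9 were lower (background 41%, 402 miRNAs), against liver 8 of 9 (36.9%, 431) and against skeletal muscle 6 of 9 (27.8%, 414), and none was higher. The median difference of the 9 members was −1.86, −2.86 and −0.97, against −0.09, 0.19 and −0.00 over all miRNAs. cutadapt is named for the tongue libraries alone in the submitters' notes, so tissue and read processing cannot be told apart in these 3 comparisons.

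miR-2284x had a very low level in tongue in each pair. Its log2 difference was −7.34 ± 0.30 against kidney (7.46 ± 3.36 against 1167 CPM as scaled in that pair, adjusted p = 1.19e-07, edgeR). It was −6.15 ± 0.29 against liver and −7.14 ± 0.30 against skeletal muscle. Of all miRNAs compared with muscle no other fell as far. The make-up of the tissues differs: the epithelial markers (miR-200 family, miR-141, miR-429, miR-205) summed to 3346 to 7222 CPM in tongue and 12.7 to 76.4 CPM in muscle, where 4 of the 6 are not listed. The mean of miR-205 was 3074 CPM in tongue and 27.1 CPM in muscle. In the same order, the fibroblast and smooth muscle markers miR-199a-3p, miR-199a-5p and miR-214 had 22834 and 10890, 4906 and 2873, and 1508 and 831 CPM. The other markers of that list were miR-143, at 30364 and 28469 CPM, and miR-145, lower in tongue at 195 and 284 CPM. The skeletal muscle markers had overlapping sums in both. The part of cell make-up in the difference of miR-2284x was not tested. In the comparison with kidney only miR-10a (−8.54) lay lower, and in that with liver miR-144-5p and miR-144 did. With the listed total as library size the differences of miR-2284x were −6.76, −6.87 and −6.78. Tongue control 4, 1 of the libraries compared, had the lowest level of the tissue (4.13 CPM). In LOS 1 to 4 in place of control 1 to 4, the differences were −7.00, −5.99 and −6.73. The tongue counts of miR-2284x were 40 to 242 reads per library, so the low level was measured and not a gap in the table.

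miR-2284w-3p followed, with −3.28 ± 0.21 against kidney, −3.54 ± 0.22 against liver and −2.24 ± 0.17 against muscle. The called miR-2285 members lay between −1.60 and −2.61 against kidney, between −1.54 and −3.55 against liver and between −0.87 and −1.04 against muscle. miR-2285bf was not called in any of the 3 pairs (−0.17, 0.05 and −0.27). With the listed total it stood at 0.42, −0.68 and 0.09, called lower against liver (adjusted p = 0.012, edgeR). Against muscle edgeR did not call miR-2285k (9.70 against 9.17 CPM) or miR-2285bn (−0.71 ± 0.29, adjusted p = 0.073) either. The calls of miR-2285ce (−0.87) and miR-2285cm (−1.04) against muscle were lost with the listed total and without fetus 2, and that of miR-2285ce also without fetus 3, without fetus 4 and in the LOS fetuses.

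The share of higher among all calls moved with the scaling in these pairs as well. With the listed total it went from 47.6% to 71.1% for tongue against kidney, from 55.6% to 34.1% against liver and from 50.2% to 73.4% against muscle, with the median of all miRNAs at 0.49, −0.54 and 0.35. The members called lower were then 8, 9 and 4 of 9, where 89 of 402, 247 of 431 and 77 of 414 of all miRNAs were lower.

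Marker miRNAs of white blood cells (miR-142 arms, miR-150, miR-155, miR-223) summed to 4912 to 5809 CPM in liver and to 211 to 448 CPM in the other tissues, where 4 of 5 entries were listed and miR-223 was not. Most of the liver sum was miR-142-5p (mean 4274 CPM). The means of miR-142-3p (560 CPM) and miR-150 (278 CPM) were also highest in liver. That of miR-155 was not, at 159 CPM in liver and 136 to 159 CPM elsewhere. Fetal liver is a site of blood formation. Among red cell precursor markers, miR-451 had a mean of 13477 CPM in liver, 160 in kidney, 110 in muscle and 224 in tongue. For miR-144 it was 2585 CPM in liver and 9.49 to 18.4 CPM elsewhere. The other marker, miR-486, had 43265.5 CPM in liver, 39256 in muscle, 19292 in tongue and 2146 in kidney. The part of blood cells in the higher liver levels of the members was not tested.

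21 other miRNAs numbered in the same cattle series (miR-2286 to miR-2490) served as a comparison list. Of those tested, 3 of 4 were higher and 1 lower in liver than in kidney, against 45.3% and 42.2% of all miRNAs. For liver against muscle 3 of 6 were higher and 2 lower, against 44.8% and 40.2%. Against kidney 5 of 6 were lower in tongue (background 41%). Against liver it was 3 of 8 (36.9%) and against muscle 2 of 7 (27.8%). In each tongue pair 1 was higher, as were 150 of 402, 199 of 431 and 116 of 414 of all miRNAs. The differences of this list for tongue against muscle ran from −0.92 to 1.12.

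LOS and control fetuses were compared within each tissue with the same test, with the 3 liver groups in 1 fit and a term for sex in tongue. No member was called in any tissue by edgeR, DESeq2 or limma-voom. Over all miRNAs edgeR called 1.24% in liver and 0% in each of kidney, muscle and tongue. DESeq2 called 9 higher and 11 lower of 563 in liver, 0 and 3 of 436 in kidney, 6 and 4 of 439 in muscle. In tongue it called 0. limma-voom called 6 higher and 1 lower in liver and 0 in each other tissue. At an unadjusted p under 0.05 there were 3 of 41 members in liver (background 14%), 2 of 18 in muscle (13.2%), 1 of 9 in tongue (5.43%) and 0 of 21 in kidney (7.57%). These shares lie near or below the background, apart from tongue, where 1 member makes the share. The median log2 difference of the members was −0.05 in liver, −0.12 in muscle, 0.21 in tongue and 0.01 in kidney, against 0.01, −0.01, 0.01 and 0.01 over all miRNAs. A missed call does not show that the groups are alike, and the intervals below give the sizes that remain possible.

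The listing itself favoured some of the differences toward LOS. In 8 cases a member reached the lowest second-highest CPM of its table with the LOS libraries but would not reach it in the other libraries alone. These were miR-2285b in kidney, miR-2285ag-3p and miR-2285ca in liver, miR-2284aa, miR-2285aj-5p, miR-2285b and miR-2285cm in muscle, and miR-2285cm in tongue. No member was in its table through the control or the ART libraries alone in this sense. For these 8, a higher value in LOS was part of being listed, so their differences are given as descriptions and their p-values are no evidence of a difference.

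**Figure D4:**
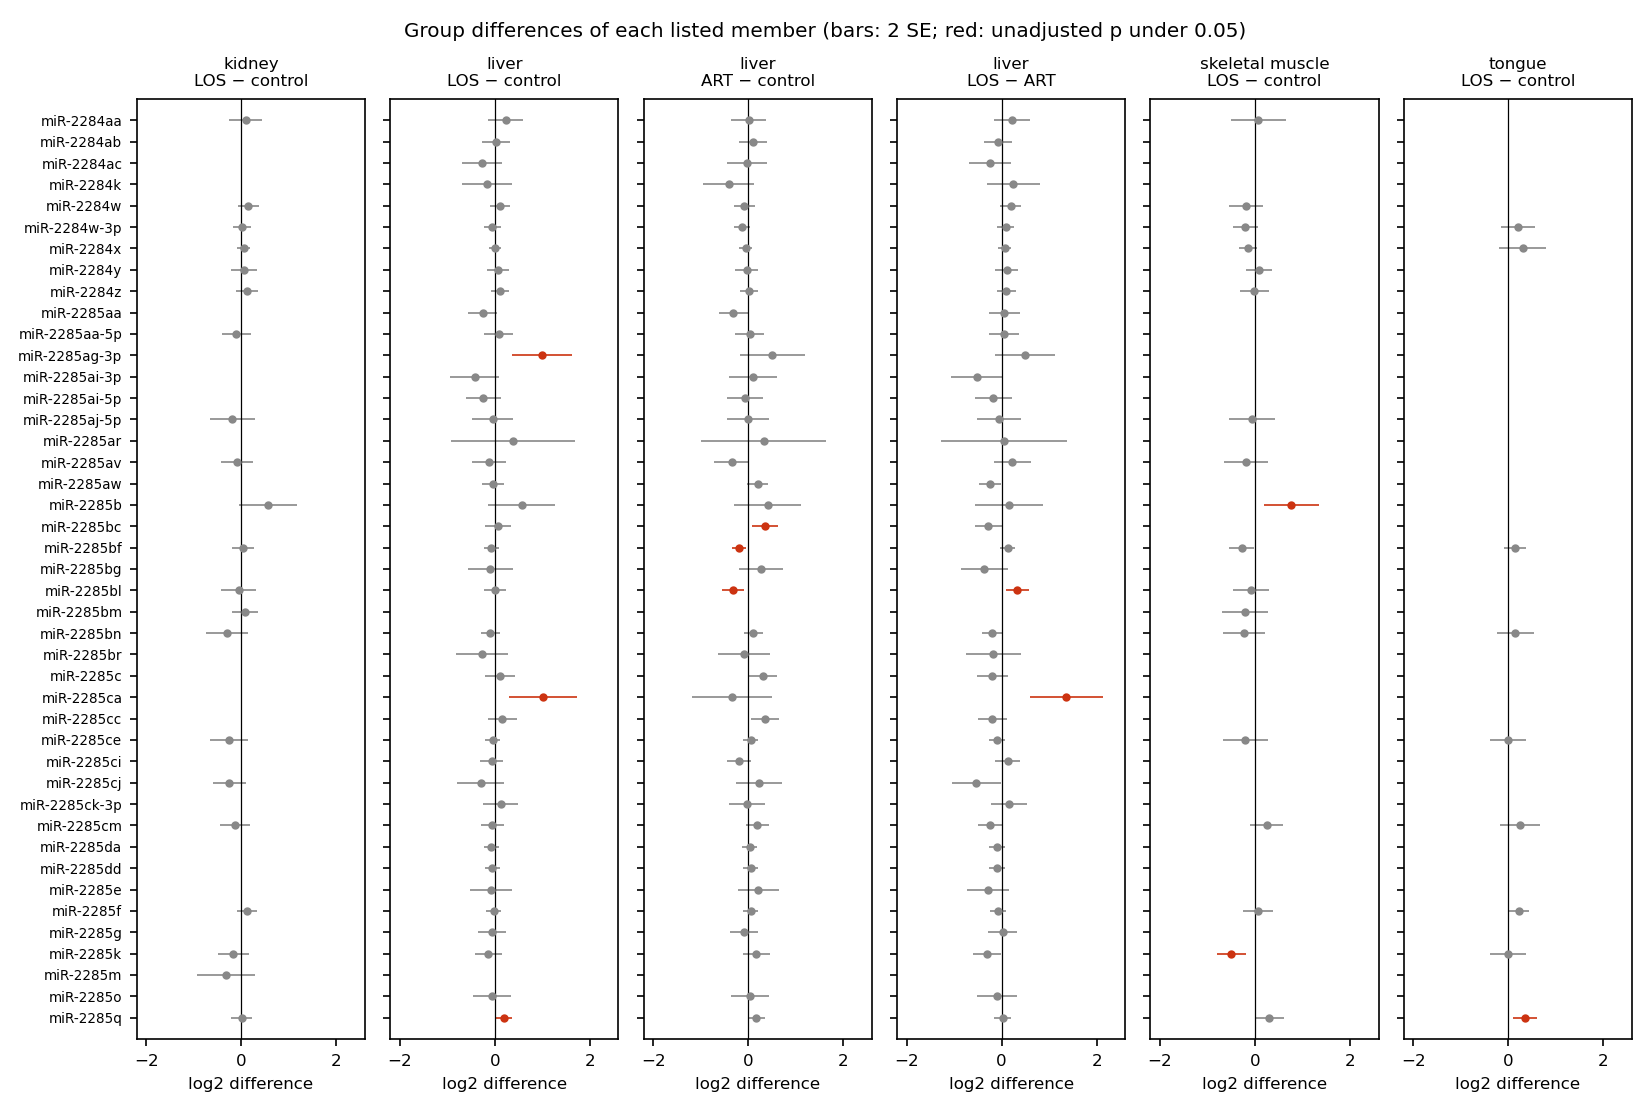
Log2 difference of each listed member in 6 comparisons of fetus groups, with bars of 2 SE on each side and red for an unadjusted p under 0.05. Most bars span 0. The entries miR-2285ca and miR-2285ag-3p in liver and miR-2285b in muscle are the largest red differences above 0, and miR-2285k in muscle is the largest below 0.

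miR-2284x, the most abundant member and so the best measured, had small differences with narrow intervals in 3 tissues. LOS minus control was 0.04 (2 SE interval −0.09 to 0.18) in kidney, 0.01 (−0.13 to 0.14) in liver and −0.15 (−0.34 to 0.04) in muscle. In tongue, at its low level, it was 0.30 (−0.20 to 0.80). The miR-2284 members had no unadjusted p under 0.05 in any of the 4 tissues.

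In kidney the lowest unadjusted p was that of miR-2285b, at 6.44 ± 0.73 CPM in LOS and 4.25 ± 2.31 in control fetuses (n = 4 each, log2 0.57 ± 0.31, adjusted p = 0.705, edgeR). miR-2285cj (−0.25), miR-2285bn (−0.30), miR-2285ce (−0.27) and miR-2284w (0.15) came next, with adjusted p from 0.798 to 0.835. Groups overlapped for all 21 members, where 4.36% of all kidney miRNAs did not overlap.

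The values of miR-2285b, a member listed in kidney and muscle through its LOS libraries, spread widely among controls. In kidney it had 4.58, 2.47, 7.33 and 2.61 CPM in control 1 to 4 and 6.66, 7.18, 6.40 and 5.56 CPM in LOS 1 to 4. In muscle it had 2.04, 2.82, 4.18 and 1.87 CPM in control 1 to 4 and 5.58, 5.22, 2.95 and 4.39 CPM in LOS 1 to 4. In liver the 5 controls had 3.85 to 20.9 CPM with a median of 12.3, the LOS fetuses 14.5 to 21.7 CPM and the ART fetuses 8.54 to 21.8 CPM. Control 3 was the highest control in each tissue and control 4 the lowest in liver and muscle, and the groups overlapped in each. The difference in muscle was 0.77 ± 0.29 (adjusted p = 0.298, edgeR) and that in liver 0.57 ± 0.35 (adjusted p = 0.489). With each library left out in turn, edgeR gave 0.63 to 1.03 in muscle (adjusted p from 0.213 to 0.494), 0.38 to 0.99 in kidney (0.176 to 0.969) and 0.34 to 0.84 in liver (0.358 to 0.664). The highest values in muscle and kidney were those without control 3, and the lowest in kidney (0.38) that without control 2. Libraries of the same fetuses are not independent, so the 3 tissues are not 3 separate tests.

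In liver the 3 members at an unadjusted p under 0.05 all had higher means in LOS. miR-2285ag-3p had 2.61 ± 0.95 CPM in controls and 5.18 ± 1.77 in LOS fetuses (log2 0.99 ± 0.32, adjusted p = 0.153, edgeR), from 6 to 14 and 16 to 35 reads per library. miR-2285ca had 1.26, 4.46, 1.81, 3.55 and 1.21 CPM in controls and 3.21, 3.75, 6.88 and 5.78 CPM in LOS fetuses (1.01 ± 0.36, adjusted p = 0.206, edgeR). These are the 2 least abundant members of the liver table, the groups overlap for both, and both are listed through the LOS libraries. miR-2285q had 39.1 ± 2.76 CPM in controls and 44.7 ± 2.96 in LOS fetuses (0.19 ± 0.09, adjusted p = 0.352, edgeR). It was the only one of 41 members whose groups did not overlap after TMM scaling (background 4.44%). The entries miR-2285aa (−0.25 ± 0.15) and miR-2285ai-3p (−0.42 ± 0.26) came next, with an adjusted p of 0.483 each.

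In skeletal muscle miR-2285k had 7.31, 8.83, 8.90 and 7.30 CPM in control 1 to 4 and 6.20, 5.38, 4.85 and 6.01 CPM in LOS 1 to 4. Each LOS library lay below each control library, and it was the only one of 18 members without overlap (background 8.88%). The difference was −0.50 ± 0.15 (adjusted p = 0.230, edgeR). miR-2285bf (−0.28 ± 0.13), miR-2285q (0.30 ± 0.15) and miR-2284x (−0.15 ± 0.09) had adjusted p from 0.374 to 0.485. Muscle is also the tissue where miR-2285k was least abundant, at 23 to 49 reads per library.

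In tongue miR-2285q was higher in LOS by 0.35 ± 0.12 (11.4 ± 2.46 in 7 LOS against 8.98 ± 1.65 CPM in 9 controls), with an unadjusted p of 0.0115 and an adjusted p of 0.843 (edgeR). The groups overlapped for all 9 members (background 0%). miR-2285f (0.22 ± 0.11), miR-2285bf (0.14 ± 0.12), miR-2284x and miR-2284w-3p (0.21 ± 0.18) had an adjusted p of 0.915. The differences of miR-2285q were 0.35 in tongue, 0.30 in muscle, 0.19 in liver and 0.01 in kidney, none called. In the same order miR-2285k had −0.02, −0.50, −0.14 and −0.17, and miR-2285ce −0.01, −0.20, −0.04 and −0.27. These 3 members are named because they had 1 sign in all 4 tables, and the other 6 of the 9 members had mixed signs. Whether the LOS difference itself varied between kidney, liver and muscle was tested as an interaction over 389 miRNAs: 0 of 17 members passed (background 1.29%), none had an unadjusted p under 0.05 (background 18.8%), and the lowest adjusted p was 0.325 (edgeR, miR-2284x).

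The liver comparisons with ART fetuses share their control and LOS libraries with the comparison above. No member was called for ART against control (edgeR background 0%) or for LOS against ART (edgeR background 2.66%), by edgeR, DESeq2 or limma-voom. Of all 563 miRNAs, DESeq2 called 5 higher and 1 lower for ART against control, and 10 and 17 for LOS against ART. For limma-voom these were 0 and 0, and 6 and 9. At an unadjusted p under 0.05 there were 3 of 41 (background 8.17%) and 2 of 41 (background 15.5%).

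For ART against control, miR-2285bl was lower (17.2 ± 1.83 against 21.4 ± 2.46 CPM, log2 −0.32 ± 0.12), miR-2285bc higher (21.2 ± 3.19 against 16.6 ± 2.11, 0.35 ± 0.14) and miR-2285bf lower (51.4 ± 3.99 against 58.9 ± 1.62 CPM, −0.20 ± 0.08), each with an adjusted p of 0.466 (edgeR). Groups did not overlap for miR-2285bc and miR-2285bf (2 of 41, background 2.84%). miR-2285cc (0.36 ± 0.15) and miR-2285aa (−0.31 ± 0.16) had adjusted p of 0.631 and 0.632.

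For LOS against ART, miR-2285ca had the lowest p of the members. It had 1.88, 1.92, 1.85 and 1.78 CPM in ART fetuses, from 7 to 9 reads each, and 3.21, 3.75, 6.88 and 5.78 CPM in LOS fetuses, from 14 to 30 reads. All LOS libraries lay above all ART libraries, for a member that the table lists only through LOS 3 and LOS 4. The difference was 1.36 ± 0.39 (adjusted p = 0.101, edgeR), and the adjusted p ranged from 0.0547 to 0.206 over the alternatives. Controls, at 1.21 to 4.46 CPM, spanned both groups. Next by edgeR came miR-2285bl (0.33 ± 0.12, adjusted p = 0.212), miR-2285k (−0.31 ± 0.15), miR-2285cj (−0.53 ± 0.26) and miR-2285aw (−0.24 ± 0.12), the last 3 with an adjusted p of 0.336. miR-2285ca and miR-2285aw were the 2 of 41 members without overlap (background 8.53%).

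Of the 41 members in liver, miR-2285ar had the highest coefficient of variation (68.9%). It had 8.58, 1.67, 2.07, 1.48 and 10.9 CPM in control 1 to 5, 4.82, 12.6, 3.44 and 6.42 CPM in LOS 1 to 4, and 2.92, 9.60, 10.8 and 1.78 CPM in ART 1 to 4. High and low fetuses occurred in each group, so the spread did not follow the groups.

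Sex could be compared in tongue alone. 0 of 9 members were called for male against female fetuses (background 0%), and 3 of 9 had an unadjusted p under 0.05 (background 13.5%). These were miR-2285f (log2 0.30 ± 0.11, adjusted p = 0.313), miR-2285q (0.32 ± 0.12, adjusted p = 0.313) and miR-2284x (15.02 ± 3.69 in 7 males against 10.1 ± 4.62 CPM in 9 females, 0.57 ± 0.25, adjusted p = 0.346, all by edgeR). miR-2285cm (0.40 ± 0.21) and miR-2285ce (0.28 ± 0.19) came next. miR-2285cm had 5.36 CPM in its second-highest library, the lowest such value of the tongue table, and at most 4.46 CPM in females. A higher value in males was thus part of its being listed, and its difference is given as a description. All 9 members, miR-2285cm included, had a difference above 0, where 43.5% of all tongue miRNAs did. They come from the same libraries and are not 9 separate tests. Female libraries had 9357833 to 13822348 listed reads and male ones 10409311 to 13369619. The LOS difference by sex was tested as an interaction, and 0 of 9 members passed (edgeR, background 0%, lowest unadjusted p = 0.267).

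**Figure D5:**
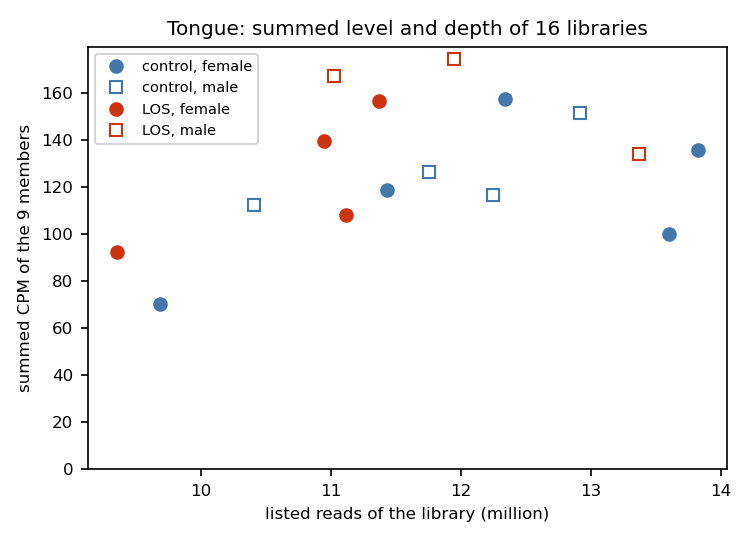
Summed CPM of the 9 members in each tongue library against its listed reads (axis in units of 1000000), with colours for the group and shapes for the sex. Control 4 has the lowest sum (70.2 CPM) at 9686419 listed reads, and the sexes and groups overlap.

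Tongue control 4, a female, stood below the other libraries. Its members summed to 70.2 CPM, against 92.2 to 174 CPM in the other 15, and it had the lowest level of each of the 9 members. Without it, the differences of miR-2285f, miR-2285q and miR-2284x by sex were 0.26, 0.31 and 0.48, and miR-2285q by LOS was 0.34. No member was called without it either.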

How the data were processed

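The files are 4 tables, 1 per tissue, of raw read counts per miRNA and library, as deposited by the authors. Per the labels' protocols, total RNA of frozen tissue was extracted with TRIzol and made into TruSeq small RNA libraries with gel size selection. Bowtie and the UMD3.1 build are named per the submitters' processing notes for all tissues, and cutadapt 1.18 for tongue alone. The counting tool, the miRNA annotation, the treatment of reads that fit several miRNAs and the filter on abundance are not stated there.

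The count tests used edgeR 4.0.16 in R 4.3.3 (TMM scaling, filterByExpr, quasi-likelihood test, p-values adjusted by Benjamini-Hochberg over each whole fit), with DESeq2 1.42.0 and limma-voom (limma 3.58.1) as alternatives. The tests were tried on simulated counts first. Intervals are 2 SE on each side and cover the spread between libraries. CPM uses the sum of the listed reads, not the full depth. SE was computed from the log2 difference and the F value.

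Named in each comparison are the called members (the 12 with the lowest p where more were called) or, with fewer than 5 called, the 5 with the lowest p. For levels they are the 5 highest and 2 lowest of a table. Named outside this rule, after their values were seen, are miR-2285ar, miR-2285b across tissues, miR-2285q, miR-2285k and miR-2285ce across tissues, and called members beyond the first 12. The members and the marker lists were chosen with earlier results of these data known.

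Fetus numbers of the labels were the block of the tissue pairs. The deviations of same-numbered libraries of 2 tissues had r from −0.03 to 0.43. In each tissue pair, 2 to 4 of 4 libraries correlated best with their own number. No 2 libraries of a tissue agreed within sampling noise (closest pair in liver, chi-square per degree of freedom 23.9). Alternatives were RLE scaling, other tools, other filters, the listed total as library size, other blocks and leaving out each fetus. Taking the LOS fetuses for the tissue pairs, and leaving out tongue control 4, were chosen after seeing the data.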

Additional observations from a re-analysis of the deposited data

Results flagged for a closer look

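In 10 of 219 groups of 4 to 10 libraries, the level of a member in 1 library lay apart from the rest of its group by Dixon's test at 95%. Chance alone flags about 1 in 20 groups, 10.9 of these. In LOS fetus 1, miR-2285f was high in kidney (63.4 CPM) and in skeletal muscle (48.3 CPM). In liver the same fetus number had the lowest miR-2284k of its group (4.42 CPM) and the highest miR-2285bg (11.5 CPM). Liver LOS 4 was lowest for miR-2285aw (27.4 CPM), miR-2285cm (29.5 CPM) and miR-2285k (80.3 CPM). The other flags in liver were miR-2285cm in ART 3 (34.6 CPM, lowest), miR-2285bl in control 4 (17.2 CPM, lowest) and miR-2285ck-3p in control 5 (9.19 CPM, highest).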

How the results depend on the processing

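Across the alternatives, 1677 values stayed the same, 28 lost their call, 5 changed sign and 19 counts or levels moved. For a log2 difference, the same means an unchanged direction and side of the threshold (522 values of fetus groups or sex, 596 of tissue pairs). For a count it means a change within a set ratio, and for a level a shift smaller than its SD. No member was called for LOS, ART or sex in any alternative (522 values of named members kept their direction and stayed uncalled). With the replicate number as a block, 0 members were called in each comparison with LOS or ART, as without it. There the numbers mark different fetuses, the correlations ran from −0.37 to 0.27, and not every library correlated best with its own number. Without the block of fetuses the tissue pairs kept every call of the named members.

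Scaling mattered most for tissue pairs. With the listed total as library size, liver against kidney gave 16 members higher and 0 lower, with miR-2284x at 0.10, miR-2284y at 0.19 and miR-2285av at 0.048. Of all 417 miRNAs, 272 were then higher and 98 lower. Liver against muscle gave 0 members lower, with miR-2284x at 0.086, where 113 of 415 miRNAs were lower. DESeq2 called 6 members higher in liver than in kidney. The 1 member lower in kidney than in muscle, miR-2285bf, gave 0 calls with RLE scaling, DESeq2 and the LOS fetuses, where it stood at 0.046. In the LOS fetuses 1 member was lower in liver than in muscle. With a mean of at least 10 CPM, 5 members were lower in tongue than in kidney, since fewer members were tested. Without each fetus in turn, members lower in liver than in muscle numbered 1 to 2 and members lower in kidney than in muscle 0 to 1. Members higher in liver than in kidney numbered 7 to 9, higher in kidney than in muscle 9 to 12, and lower in tongue than in muscle 4 to 7. Without the 3 most abundant miRNAs in the total, the members summed to 2703 (kidney), 3405 (liver), 1657 (muscle) and 183 CPM (tongue). The cause of these shifts was not tested. Depth limits the rarest members: at 5 to 30 reads per library, differences such as that of miR-2285ca carry wide intervals.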
